A study of Nicotiana plumbaginifolia and Nicotiana benthamiana and Nicotiana rustica with 81 samples.

Results

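The comparison is of floral nectaries of Nicotiana rustica at stage 9 of flower development with those at stage 6. Transcripts entered it when their mean normalized count was 50 or more at either stage, which 18040 of the 38230 transcripts in the deposited table were. Of these, 16289 reached 50 at both stages. The other 1751 reached it at 1 stage only and so tended to differ. Summed over transcripts that share an Arabidopsis match, 10555 of 12541 loci reached the same level. At the edge of the rule, the 69 transcripts whose higher mean was 50 had a median log2 change of 0.12, and the 63 whose higher mean was 49 had a median of 0.

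The stage 9 group holds nectaries of the pre-secretory, still immature flower, and the stage 6 group holds nectaries of the younger flower, which the labels place at the start of a metabolic switch. Each has 3 libraries of N. rustica line TR-16 (PI-34752). The labels name no altered gene and no applied agent in either group, and all plants were raised in pots under 16 h of light and 8 h of dark. Nectaries were dissected by hand. The labels do not say whether the 3 libraries came from separate plants, so the spread between them may be technical. Nectaries of 5 other species at the same stages were used for comparison, along with N. rustica nectaries at stage 12 (open flowers) and after secretion.

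The table gives only a mean and an SD per group, both whole numbers, so values below are the authors' means ± SD over 3 libraries and no value per library can be shown. Library totals are not given, so the depth is unknown. The means summed to 10423665 at stage 9 and 9700503 at stage 6. The median SD was 7.02% of the mean at stage 9 and 7.07% at stage 6. The 2 groups could not have overlapped where their means lay further apart than 1.15 times the sum of their SDs, the farthest that 3 values allow. N. rustica is an allotetraploid whose reads were counted on N. tabacum transcripts, so reads of near-identical copies may be divided among them and the value of any one copy is uncertain. Sums over a locus do not depend on that division as far as the copies share an Arabidopsis match. The columns of N. bonariensis and N. clevelandii were identical in all 38230 transcripts, so they entered once, as the profile deposited under both names.

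The labelled tissue carried nectary transcripts at both stages. CRABS CLAW, the YABBY factor without which Arabidopsis flowers form no nectaries, averaged 6732 ± 188 at stage 9 and 6544 ± 335 at stage 6 (XM_016610040.1). In N. plumbaginifolia it was listed at 0 in leaf but had 156 in ovary, above its 115 at stage 9 and 86 at stage 6 in nectaries of that species, so it does not tell nectary from ovary there. Of 58 leaf mesophyll markers 18 reached 50, and their sum was 12016 at stage 9 and 13964 at stage 6. No pistil-specific extensin or other style marker reached 50. Of 20 ovule and ovary markers 8 did, none of them called changed. Their sum was 5670 at stage 9 and 4833 at stage 6. Of 9 tested anther and pollen markers 3 fell, and their sum was 7514 at stage 9 and 11153 at stage 6. The 3 vascular markers summed to 914 at stage 9 and 1354 at stage 6, and the 2 petal and stamen markers to 3253 at stage 9 and 3067 at stage 6. The part of these other tissues in the changes below was not tested.

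A floral nectary first grows by cell division, then stops dividing, enlarges, stores starch in its plastids and at flower opening releases sugars, proteins and antioxidants as nectar. In tobacco the sugar leaves the cells through the exporter SWEET9 and is cleaved by a cell wall invertase. Nectarins, the main proteins of tobacco nectar, produce and control hydrogen peroxide, and the mature gland turns orange as carotenoids build up in its plastids.

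Between stage 6 and stage 9 the N. rustica nectary gained transcripts of carotenoid synthesis, the sugar exporter, nectarin-3 and a germin-like protein. It lost transcripts of core histones, DNA replication, mitosis and ribosomes. A transcript was called when it changed at least 2-fold with an adjusted p under 0.05, by limma's moderated statistic with Benjamini-Hochberg adjustment over all 18040. Changes are log2 of the ratio of means plus 1, stage 9 over stage 6. By this rule 1075 transcripts (5.96%) rose and 1519 (8.42%) fell, 14.4% in all. The fold limit alone gave the same counts, so the adjusted p removed no transcript. The adjusted p alone was under 0.05 for 11918 transcripts (66.1%), most of which changed by less than 2-fold, and the unadjusted p for 12437. Among transcripts at 50 or more at both stages, 729 rose and 969 fell. The median change over all 18040 was 0.04, and the middle 90% lay between -1.27 and 1.08.

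The number of rises and falls depends on how the 2 stages are scaled to each other. Of the called transcripts 41.4% were higher at stage 9 with the means as deposited, but 32.4% when the column sums were made equal, and 31.1% when the transcript of widest spread was first left out of those sums. That transcript, described as cytochrome P450-like (D64052.1), averaged 161960 ± 32705 at stage 9 and 243946 ± 192634 at stage 6, and was not called. The last scaling moved every change by -0.12. The median of all transcripts was then -0.08, and those of the starch synthesis, auxin and ethylene lists were also below 0. Among transcripts on the gene lists or named by rule, 24 of the 151 that rose missed 2-fold once column sums were made equal, and no fall was lost. Of those described below they included phytoene synthase XM_016579974.1, zeta-carotene desaturase XM_016658599.1, sucrose-phosphate synthase and sucrose synthase-like XM_016610900.1. The larger beta-amylase 3, COI1-like, PYR1-like, aquaporin NIP6-1-like and MYB305 XM_016584086.1 were also among them. With equal sums the rises were 11 in the carotenoid synthesis list, 3 in sugar export and cleavage, 1 in jasmonate and none in the regulator list, and the falls were 11 in aquaporins and proton pumps, 2 in starch synthesis and 5 in translation factors. The other lists moved by no more than 1.5 times.

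Libraries of the 2 stages could not have overlapped in 11480 transcripts (63.6%), 5857 of them higher at stage 9 (32.5%) and 5623 lower (31.2%). Of the called transcripts, 16 that rose and 5 that fell could have overlapped. The widest relative spread among those named below was in a peroxidase 3-like transcript (XM_016613557.1), at 195 ± 263 at stage 9 and 8 ± 2 at stage 6. An SD above the mean in 3 libraries shows that 1 library held most of the stage 9 value.

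**Figure D1:**
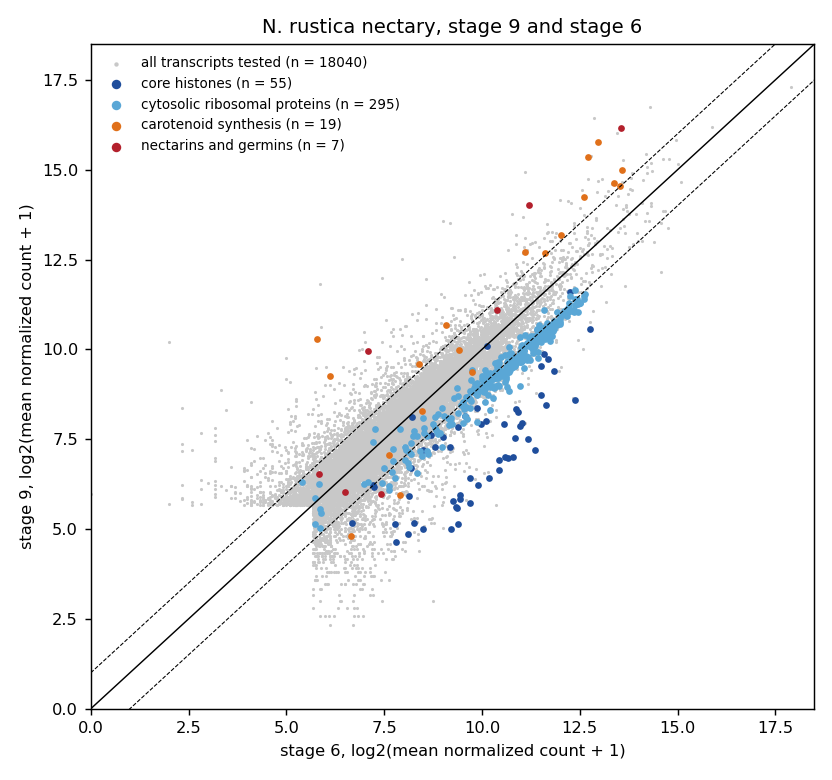
Mean normalized count (plus 1, log2) of each of the 18040 transcripts at stage 9, on the vertical axis, against stage 6, on the horizontal axis, with equality as a solid line and 2-fold changes as dashed lines. Core histones (55) and cytosolic ribosomal proteins (295) lie almost wholly below the line of equality, and most carotenoid synthesis transcripts (19) lie above it.

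Taking 1 described transcript per Arabidopsis locus, the largest rises at a mean of at least 500 included transporters, secreted proteins and a chaperone regulator. Desiccation-related protein PCC13-62-like (XM_016594260.1), named after a resurrection plant protein, averaged 1181 ± 71 at stage 9 and 3 ± 2 at stage 6. So low a stage 6 mean makes its ratio depend on the constant added, and the log2 change was 8.21 with 1 added and 6.52 with 10. A high affinity nitrate transporter (XM_016605900.1) averaged 3589 ± 24 at stage 9 and 57 ± 10 at stage 6, a log2 change of 5.95 ± 0.10 (SE). BAG family molecular chaperone regulator 6-like (XM_016618357.1), of a family that binds Hsp70 chaperones, averaged 4041 ± 302 at stage 9 and 172 ± 19 at stage 6. A 14 kDa proline-rich protein of the DC2.15 type (XM_016623903.1) averaged 12286 ± 622 at stage 9 and 513 ± 12 at stage 6. The groups of these 4 transcripts could not have overlapped, as held for 63.6% of all transcripts. Their limma adjusted p-values lay at or below 3.52e-12. Others in this set were a probable protein phosphatase 2C 4 (579 ± 28 and 31 ± 8 at stages 9 and 6), and non-specific phospholipase C2, which cleaves membrane phospholipids (1436 ± 47 and 125 ± 19).

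Of the 12 largest falls at the same level, again with 1 transcript (the largest change) per Arabidopsis locus, 7 were histone transcripts of the H2A, H2B, H3 and H4 classes. The others were a probable trans-2-enoyl-CoA reductase of mitochondrial fatty acid synthesis (XM_016588205.1), with 50 ± 1 at stage 9 and 1313 ± 13 at stage 6, and a rhamnosyltransferase, with 32 ± 7 at stage 9 and 510 ± 10 at stage 6 (XM_016655179.1). High mobility group B protein 7-like, a DNA-binding chromatin protein, had 55 ± 4 at stage 9 and 778 ± 66 at stage 6 (XM_016616312.1). A polygalacturonase of pectin breakdown had 55 ± 9 at stage 9 and 694 ± 25 at stage 6 (XM_016625581.1). A transcript described as the clock regulator APRR1 (XM_016653577.1), with no Arabidopsis match, had 402 ± 17 at stage 9 and 5127 ± 102 at stage 6.

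**Figure D2:**
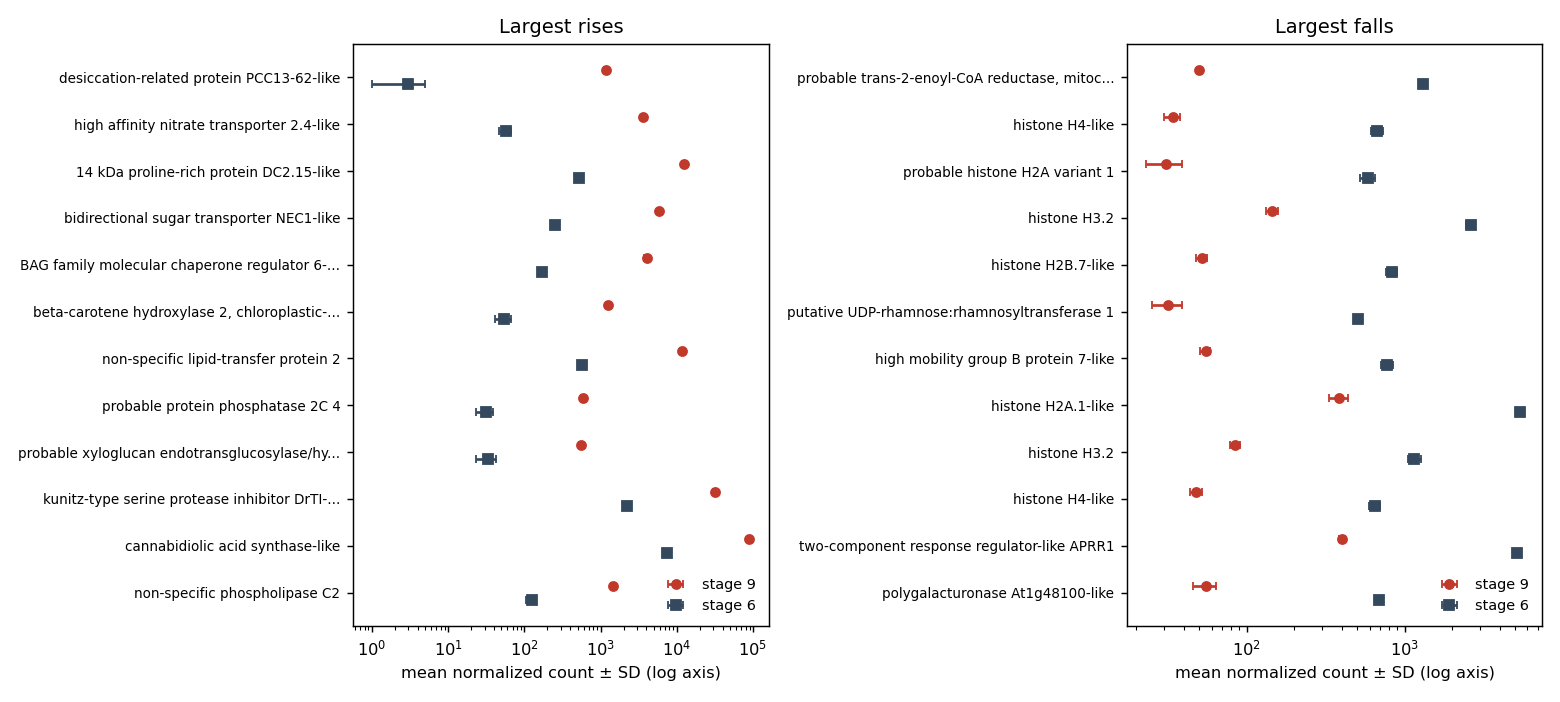
Mean ± SD of normalized counts over 3 libraries, on a log axis, at stage 9 (circles) and stage 6 (squares) for the 12 largest rises and 12 largest falls with a mean of at least 500, 1 per Arabidopsis locus. The stage 9 and stage 6 values of each transcript stand apart by more than their error bars, and 7 of the 12 falls are histones.

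Sugar export and cleavage rose at the exporter, at 1 invertase and at 1 sucrose synthase-like transcript. Most sucrose-cleaving enzymes changed less than 2-fold. Of 43 listed members, 23 were tested, 5 rose, 1 fell and the median change was 0.49. Of the 2 abundant transcripts described as NEC1-like, the petunia name of SWEET9, XM_016615427.1 averaged 5862 ± 147 at stage 9 and 249 ± 2 at stage 6, a log2 change of 4.55 ± 0.051 (limma adjusted p = 4.4e-17). The other, XM_016577514.1, averaged 2968 ± 106 at stage 9 and 494 ± 27 at stage 6. Their courses then parted. XM_016615427.1 had 3145 at stage 12, and XM_016577514.1 had 14854. The summed SWEET9 locus AT2G39060 stood at 8830 ± 253 at stage 9 and 743 ± 29 at stage 6, with an SD taken as the sum of its transcripts' SDs.

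Apoplastic invertase, which splits sucrose outside the cell, rose as KF308284.1, with 238 ± 18 at stage 9 and 39 ± 7 at stage 6. The more abundant insoluble isoenzyme, matched to cell wall invertase 4 (XM_016593154.1), averaged 4199 ± 110 at stage 9 and 2411 ± 71 at stage 6, a log2 change of 0.80 below the 2-fold limit. Sucrose-phosphate synthase, which makes sucrose, rose in 1 transcript of the sugar export and cleavage list (XM_016607051.1, 3677 ± 248 at stage 9 and 1806 ± 169 at stage 6). The most abundant member was a sucrose synthase-like transcript, XM_016604254.1, with 40282 ± 762 at stage 9 and 28052 ± 547 at stage 6, a log2 change of 0.52. Another sucrose synthase-like transcript rose, by a log2 change of 1.03 (XM_016610900.1). The 1 fall of the list was sucrose synthase XM_016610901.1, with 69 ± 20 at stage 9 and 147 ± 10 at stage 6.

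Starch synthesis moved little, while a few transcripts of starch breakdown rose. In starch synthesis, 1 of 24 tested transcripts rose (4.17%), 1 fell (4.17%), and the median was 0.08. The riser was isoamylase 2, a debranching enzyme (XM_016595496.1, 1871 ± 63 at stage 9 and 642 ± 51 at stage 6). Large subunit 1 of ADP-glucose pyrophosphorylase, which commits sugar to starch, fell in the minor transcript of the starch synthesis list (XM_016581069.1, 21 ± 6 at stage 9 and 52 ± 2 at stage 6) and was just short of 2-fold in the main one (XM_016581070.1, 437 ± 31 at stage 9 and 857 ± 35 at stage 6). In starch breakdown, 5 of 29 rose (17.2%) and 2 fell (6.9%), beside 5.96% and 8.42% of all transcripts. The median of that list was 0.28. The risers were 2 transcripts of beta-amylase 3, which cuts maltose from starch in the plastid, 2 of alpha-amylase 3 and the starch phosphatase LSF1. The larger beta-amylase 3 transcript (XM_016591116.1) averaged 884 ± 27 at stage 9 and 415 ± 1 at stage 6.

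Transcripts of the nectarin and germin list reached high levels at stage 9. Of 7 tested members of the nectarin and germin list, out of 19 in the table, 3 rose and 1 fell. Their sum was 93487 at stage 9 and 16151 at stage 6, and most of it lay in 1 transcript. That transcript, germin-like protein subfamily 1 member 17 (XM_016631144.1), averaged 73462 ± 1556 at stage 9 and 12015 ± 471 at stage 6. Whether its protein enters nectar was not tested. The main transcript of the bifunctional monodehydroascorbate reductase and carbonic anhydrase nectarin-3 (XM_016588226.1) averaged 16614 ± 159 at stage 9 and 2347 ± 33 at stage 6, and its minor copy (XM_016633651.1) 992 ± 19 and 134 ± 23 at stages 9 and 6. Nectarin-1 itself, the superoxide dismutase of tobacco nectar (XM_016580669.1), averaged 2201 ± 90 at stage 9 and 1339 ± 29 at stage 6, a log2 change of 0.72, below 2-fold.

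Several other abundant transcripts of secreted proteins rose with them. A transcript described as cannabidiolic acid synthase-like (XM_016601690.1), of the berberine bridge enzyme family to which nectarin-5 of tobacco belongs, averaged 88108 ± 2445 at stage 9 and 7465 ± 153 at stage 6, a log2 change of 3.56 ± 0.035 (limma adjusted p = 2.64e-17). A non-specific lipid-transfer protein-like transcript (XM_016639621.1) averaged 66932 ± 2625 at stage 9 and 11241 ± 776 at stage 6. Non-specific lipid-transfer protein 2 (XM_016640257.1) averaged 11799 ± 721 at stage 9 and 578 ± 33 at stage 6. A kunitz-type serine protease inhibitor (XM_016616952.1) averaged 31469 ± 1256 at stage 9 and 2188 ± 12 at stage 6, and had 4421 at stage 12. In each of these 4 the stages could not have overlapped, as held for 63.6% of all transcripts.

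The lists that hold these transcripts did not rise as a whole. The lipid transfer and cuticle list had a median of -0.32. Of its 60 tested members, 8 rose (13.3%) and 16 fell (26.7%), beside 5.96% and 8.42% of all transcripts. Those that fell were mostly GDSL esterases, a family that includes cutin-forming enzymes, and non-specific lipid-transfer protein 1-like (XM_016655097.1, 94 ± 7 at stage 9 and 1053 ± 149 at stage 6). In the defence list, 3 of 35 rose (8.57%) and 9 fell (25.7%), with a median of -0.39. Defensin-like protein P322 (XM_016595723.1) averaged 10606 ± 852 at stage 9 and 27705 ± 1967 at stage 6. Cysteine-rich extensin-like protein-4, of the cell wall (L13442.1), averaged 4600 ± 213 at stage 9 and 24455 ± 1396 at stage 6.

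Carotenoid synthesis rose along nearly the whole pathway. Of 33 listed members, 19 were tested, 13 rose, 2 fell and the median change was 1.20. The summed means were 228873 at stage 9 and 68437 at stage 6, which made up 2.2% of all normalized counts at stage 9 and 0.705% at stage 6. Phytoene synthase, the entry enzyme, rose in 2 of 3 transcripts, the main one with 6517 ± 118 at stage 9 and 3120 ± 69 at stage 6 (XM_016579974.1). Phytoene desaturase rose in all 3 transcripts, the main one with 32653 ± 318 at stage 9 and 12263 ± 164 at stage 6 (XM_016642615.1). The next enzymes, zeta-carotene isomerase, zeta-carotene desaturase and the main prolycopene isomerase, rose by log2 changes between 1.04 and 1.65.

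At the branch point of the pathway the 2 cyclases differed. Lycopene epsilon cyclase, which leads to lutein (HQ993098.1), fell to 61 ± 7 at stage 9, against 237 ± 17 at stage 6. Lycopene beta cyclase, which leads to beta-carotene (XM_016633695.1), had 1009 ± 71 at stage 9 and 687 ± 11 at stage 6, a log2 change of 0.55 that was not called. Of the hydroxylases that make zeaxanthin, beta-carotene hydroxylase 2 (XM_016611556.1) averaged 1245 ± 24 at stage 9 and 54 ± 13 at stage 6, a log2 change of 4.50 ± 0.13 (limma adjusted p = 1.2e-12). It had 63056 at stage 12.

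Enzymes of the violaxanthin cycle rose in 3 of 4 transcripts. Zeaxanthin epoxidase, which makes violaxanthin, had 55944 ± 1952 at stage 9 and 7985 ± 206 at stage 6 in XM_016620556.1, and 42228 ± 1701 and 6661 ± 393 at stages 9 and 6 in XM_016582459.1. Violaxanthin de-epoxidase, which reverses that step, rose in 1 transcript (XM_016610647.1, 25503 ± 583 at stage 9 and 10662 ± 211 at stage 6) and not in the other (XM_016601061.1, 132 ± 10 at stage 9 and 198 ± 2 at stage 6). ABA DEFICIENT 4, which is needed to make neoxanthin in Arabidopsis (XM_016591172.1), averaged 110309 ± 1132 at stage 9 and 20135 ± 878 at stage 6. No transcript gained more normalized counts between the stages.

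The plastid pathway that feeds carotenoid synthesis rose at its ends, in 1 transcript each. Of 17 tested members of the plastid isoprenoid precursor list, 2 rose and 1 fell, with a median of 0.14. The list also holds protein prenylation genes, whose changes were small. The first enzyme, deoxyxylulose-phosphate synthase (FN429979.1), averaged 27277 ± 687 at stage 9 and 8619 ± 237 at stage 6. The 1 fall was in a low transcript described as the same enzyme (XM_016592817.1, 44 ± 11 at stage 9 and 90 ± 24 at stage 6). Geranylgeranyl pyrophosphate synthase, which makes the C-20 precursor of carotenoids (XM_016586612.1), averaged 42522 ± 509 at stage 9 and 7070 ± 65 at stage 6. Main transcripts of the 6 steps between changed by 0.06 to 0.85 on the log2 scale in this list, short of 2-fold.

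Violaxanthin and neoxanthin are also the raw material of abscisic acid. Of 18 tested transcripts of the abscisic acid and desiccation list, 6 rose and none fell, with a median of 0.42. The cleavage enzyme NCED6 (XM_016602905.1) averaged 39628 ± 354 at stage 9 and 12374 ± 281 at stage 6. NCED3 rose in XM_016639826.1, with 529 ± 36 at stage 9 and 193 ± 1 at stage 6, and a second NCED3 transcript (JX101472.1) had 181 ± 11 at stage 9 and 249 ± 27 at stage 6, not called. Among the PYR/PYL receptors of the hormone, PYR1-like and PYL4-like rose, and none of the PYL8-like and PYL9-like transcripts did.

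**Figure D3:**
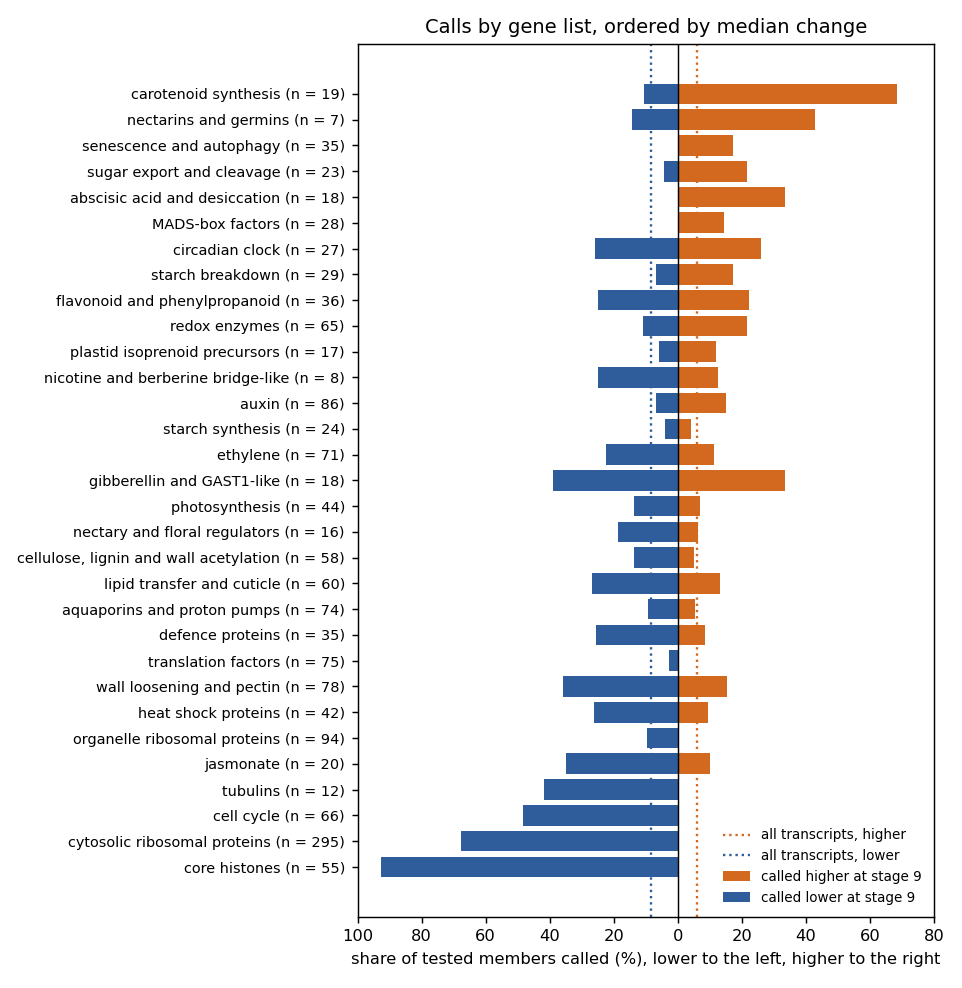
Share of tested members of each gene list, cell type markers aside, that was called higher (bars to the right) or lower (bars to the left) at stage 9 than at stage 6, with the shares over all 18040 transcripts as dotted lines (5.96% higher and 8.42% lower). Lists run by median change, highest at the top, and the 4 lowest lists (core histones, cytosolic ribosomal proteins, cell cycle and tubulins) have no member called higher.

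Core histones showed the largest fall of any list. Of 85 listed, 55 were tested, 51 fell and none rose, with a median change of -2.78 against 0.04 over all transcripts. At both stages 45 reached 50. The groups could not have overlapped in 53 of the 55 tested, beside 63.6% of all transcripts. Summed means were 16159 at stage 9 and 79004 at stage 6. All 12 H4 and all 13 H2B transcripts fell, as did 10 of 11 H3 and 16 of 19 H2A transcripts. Histone H3.2 (XM_016588791.1), the form used when DNA is copied, averaged 145 ± 12 at stage 9 and 2622 ± 190 at stage 6. A histone H4-like transcript (XM_016626716.1) averaged 34 ± 4 at stage 9 and 673 ± 58 at stage 6, a log2 change of -4.27. In bulk tissue, fewer cells that make histones and less histone RNA per cell cannot be told apart.

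The 4 core histones that did not fall by 2-fold were 3 of the H2A class and 1 of the H3 class. Probable histone H2A variant 1 (XM_016579140.1) had 1099 ± 40 at stage 9 and 1118 ± 61 at stage 6, and probable histone H2A variant 3 (XM_016602161.1) had 278 ± 12 at stage 9 and 294 ± 26 at stage 6. Another transcript described as H2A variant 1 (XM_016658380.1) fell to 31 ± 8 at stage 9, against 587 ± 63 at stage 6, so copies that share a description did not move alike. The remaining H3 transcript of the core histones list (AB015760.1) had 3129 ± 186 at stage 9 and 4834 ± 309 at stage 6.

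Transcripts of DNA replication and mitosis fell as well. Of 66 tested members of the cell cycle list, out of 155 in the table, 32 fell and none rose, with a median of -0.87. Only 44 of the 66 reached 50 at both stages, and among members with a mean of at least 200 at either stage 11 fell, with a median of -0.48. All 8 transcripts of the MCM helicase, which licenses replication origins, and of PCNA, the sliding clamp, fell, and together they summed to 1090 at stage 9 and 6698 at stage 6. In the cell cycle list, MCM5 (XM_016604124.1) averaged 105 ± 11 at stage 9 and 810 ± 15 at stage 6. PCNA (AB025029.1) averaged 187 ± 17 at stage 9 and 1129 ± 96 at stage 6. Cyclins fell in 10 of 15 transcripts, among them a mitotic cyclin of the B type (XM_016579703.1), with 10 ± 1 at stage 9 and 126 ± 5 at stage 6. The cell cycle list also holds 40 kinesins, motor proteins that serve mitosis and transport alike, of which 12 fell. The most abundant, kinesin-related protein 4-like (XM_016577939.1), had 2118 ± 107 at stage 9 and 1448 ± 108 at stage 6, not called.

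Tubulins, the subunits of microtubules, fell in 5 of 12 transcripts, with a median of -0.86. Tubulin alpha chain-like (XM_016610097.1) averaged 83 ± 16 at stage 9 and 897 ± 29 at stage 6. The most abundant tubulin, alpha-2 (XM_016653382.1), averaged 7357 ± 259 at stage 9 and 13774 ± 163 at stage 6, short of 2-fold.

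Cytosolic ribosomal proteins fell on both subunits. Of 295 tested, out of 486 in the table, 200 fell, none rose, and 290 had a negative change. The median was -1.10, close to the 2-fold limit. Summed means were 263237 at stage 9 and 569826 at stage 6. The 40S transcripts (83 of 118 fell, median -1.12) and the 60S transcripts (117 of 177 fell, median -1.10) moved alike. The most abundant over both stages, 40S ribosomal protein S10-1-like (XM_016601199.1), averaged 2975 ± 241 at stage 9 and 6367 ± 443 at stage 6. The largest fall was that of 40S ribosomal protein S6-like (XM_016638608.1), with 502 ± 87 at stage 9 and 1992 ± 114 at stage 6. Of the 5 transcripts with a positive change, 4 were L18a-like proteins.

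Other lists of the translation machinery had medians short of 2-fold. Ribosomal proteins of plastids and mitochondria had a median of -0.62, and 9 of 94 fell (9.57%), near the 8.42% of all transcripts. Translation factors had a median of -0.46, and 2 of 75 fell (2.67%). Elongation factor 1-alpha-like (XM_016614393.1), which brings aminoacyl-tRNA to the ribosome, averaged 14769 ± 379 at stage 9 and 26368 ± 339 at stage 6. Among heat shock proteins 4 of 42 rose and 11 fell, with a median of -0.60. Those that fell included heat shock cognate protein 80-like, an Hsp90 (XM_016583532.1, 589 ± 60 at stage 9 and 2333 ± 58 at stage 6). A small plastid heat shock protein rose (XM_016632573.1, 202 ± 13 at stage 9 and 6 ± 3 at stage 6).

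**Figure D4:**
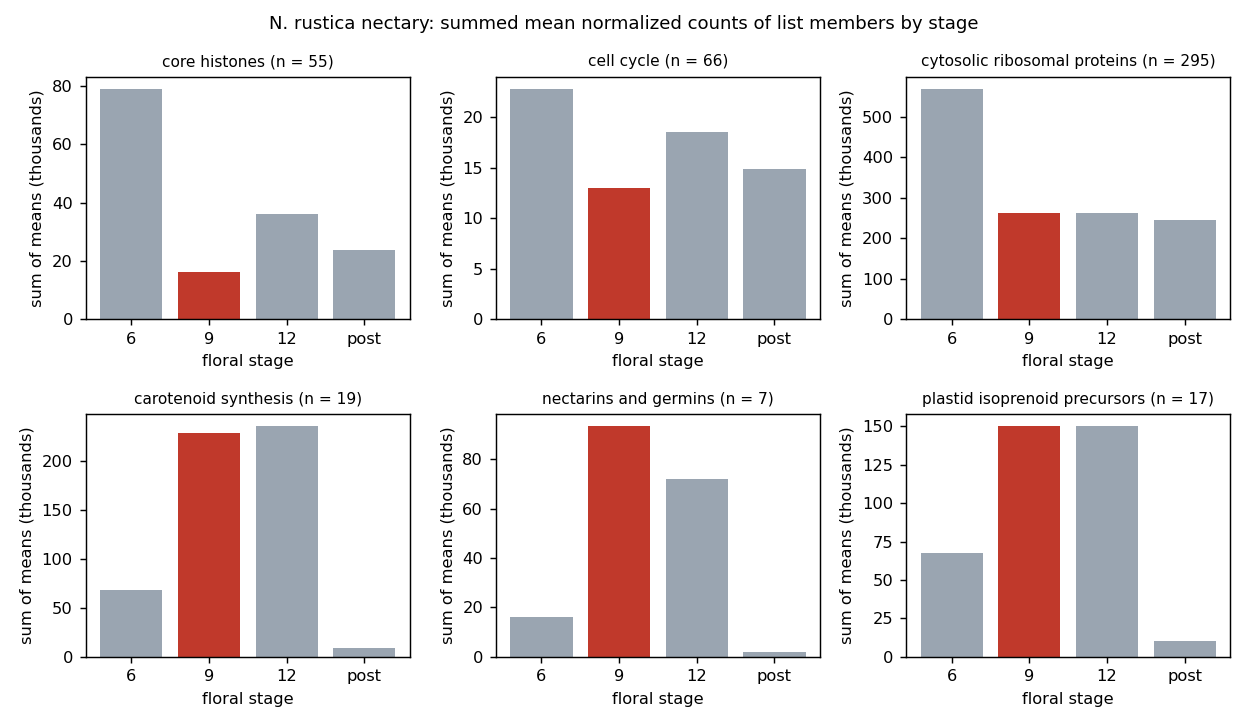
Summed mean normalized counts (in units of 1000) of the members of 6 gene lists in N. rustica nectaries at stages 6, 9, 12 and after secretion, with stage 9 in red. Core histone and cell cycle sums at stages 9 and 12 and after secretion all lie below those at stage 6, cytosolic ribosomal proteins stay near their stage 9 sum afterwards, and the 3 lists in the lower row are high at stages 9 and 12 and low after secretion.

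The later stages show how far these changes lasted. Core histones summed to 79004, 16159, 36201 and 23746 at stages 6, 9 and 12 and after secretion. The cell cycle list summed to 22821, 13026, 18504 and 14830. After secretion the SD was above the mean in 17 of the 55 histones and 15 of the 66 cell cycle transcripts, so that 1 library held most of those values, as for the histone H4-like transcript XM_016626716.1 with 76 ± 86. The order of the stage 9 and post-secretory sums was not tested. Cytosolic ribosomal proteins summed to 569826, 263237, 261983 and 244470 and did not return. Carotenoid synthesis summed to 68437, 228873, 235978 and 8549, and nectarins and germins to 16151, 93487, 72216 and 1741. Of the 1075 transcripts that rose, 785 were still at least 2-fold above their stage 6 mean at stage 12. Of the 1519 that fell, 860 were still at least 2-fold below it, and 622 were within 2-fold of it. These counts use the same stage 6 means as the calls, so they are not independent of them.

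Regulators of the nectary and flower changed in a few members. The regulator list had a median of -0.12. Of 16 tested, 1 rose (6.25%) and 3 fell (18.8%), beside 5.96% and 8.42% of all transcripts. The 3 that fell are YABBY transcripts matched to FILAMENTOUS FLOWER, which sets the lower side of lateral organs. The main one (XM_016626538.1) averaged 670 ± 33 at stage 9 and 3998 ± 312 at stage 6. MYB305, an activator of nectarin and flavonoid genes in tobacco nectaries, had 4 transcripts, all higher at stage 9. The most abundant (XM_016644811.1) averaged 5900 ± 154 at stage 9 and 4379 ± 79 at stage 6, a log2 change of 0.43, and only XM_016584086.1 passed 2-fold, with 2320 ± 35 at stage 9 and 1120 ± 21 at stage 6. The auxin response factors ARF6 and ARF8, which nectary growth needs in Arabidopsis, changed by -0.24 to 0.32 in the nectary and floral regulators list, and none was called.

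MADS-box factors, which set floral organ identity, rose in 4 of 28 transcripts (14.3%, beside 5.96% of all transcripts), and none fell. Of these 4, 3 are described as MADS-box transcription factor 23-like. The largest change was that of XM_016607350.1, with 252 ± 19 at stage 9 and 33 ± 7 at stage 6. The petal and stamen factor PMADS 1 (XM_016585378.1) had 2311 ± 130 at stage 9 and 2524 ± 60 at stage 6, and the tobacco AGAMOUS gene NAG1 (L23925.1) 3417 ± 121 at stage 9 and 2863 ± 15 at stage 6. Neither was called.

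Clock transcripts went both ways. Of 27 tested in the circadian clock list, 7 rose and 7 fell. All 5 GIGANTEA transcripts rose, the main one (XM_016605947.1) with 2177 ± 175 at stage 9 and 669 ± 53 at stage 6. A transcript described as APRR9 but matched to locus AT5G24470 (XM_016601205.1) rose as well, with 591 ± 34 at stage 9 and 117 ± 13 at stage 6. Both transcripts of LHY, a morning factor, fell, the larger (XM_016607589.1) with 53 ± 9 at stage 9 and 275 ± 22 at stage 6. APRR7 (XM_016577881.1) fell to 1481 ± 91 at stage 9, against 3433 ± 230 at stage 6. A transcript matched to Arabidopsis APRR1 (XM_016645054.1) rose, with 591 ± 43 at stage 9 and 234 ± 3 at stage 6, while the unmatched one of that description was among the largest falls above. The labels give no hour of dissection, so stage and time of day cannot be told apart for these genes.

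Hormone lists were mixed. Jasmonate transcripts fell in 7 of 20 and rose in 2, with a median of -0.63. Those that fell included 5 TIFY transcripts, the family of the JAZ repressors of the jasmonate response, and allene oxide cyclase, an enzyme of its synthesis (AJ308487.1, 1241 ± 43 at stage 9 and 2912 ± 86 at stage 6). Those of the jasmonate list that rose were COI1-like, the receptor (XM_016599642.1, 299 ± 23 at stage 9 and 146 ± 9 at stage 6), and jasmonate O-methyltransferase-like (XM_016643029.1, 3792 ± 14 at stage 9 and 815 ± 4 at stage 6).

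In the gibberellin list, 6 of 18 rose and 7 fell. Of the risers, 3 were gibberellin 2-oxidases, which inactivate the hormone, and 2 were GID1B-like receptors. The main receptor transcript (XM_016634484.1) averaged 1797 ± 91 at stage 9 and 322 ± 49 at stage 6. Gibberellin 20 oxidase, which makes the hormone, fell (XM_016635192.1, 133 ± 15 at stage 9 and 287 ± 8 at stage 6), as did 6 small secreted proteins of the GAST1 and snakin type in the gibberellin and GAST1-like list.

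Auxin-list transcripts rose in 13 of 86 (15.1%) and fell in 6 (6.98%), beside 5.96% and 8.42% of all transcripts. Among them, 6 small growth-linked transcripts of the SAUR type rose. In the ethylene list 8 of 71 rose (11.3%) and 16 fell (22.5%). ACC oxidase, the last enzyme of ethylene synthesis, rose in its main transcript (XM_016605728.1, 5365 ± 98 at stage 9 and 1880 ± 68 at stage 6) and fell in XM_016597879.1 (172 ± 28 at stage 9 and 457 ± 20 at stage 6).

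Cell wall enzymes fell more often than they rose, as did transcripts as a whole (8.42% fell and 5.96% rose). In the wall loosening and pectin list, 28 of 78 fell (35.9%) and 12 rose (15.4%), with a median of -0.48. Pectinesterase 3-like (XM_016610698.1), which removes methyl groups from pectin, averaged 25 ± 2 at stage 9 and 330 ± 48 at stage 6. Xyloglucan endotransglucosylase 30 (XM_016581891.1) went the other way, with 548 ± 31 at stage 9 and 33 ± 10 at stage 6. In the cellulose, lignin and wall acetylation list, 8 of 58 fell (13.8%) and 3 rose (5.17%), with a median of -0.25. Its share of rises was near that over all transcripts. Caffeoylshikimate esterase-like, of lignin synthesis (XM_016615183.1), averaged 75 ± 4 at stage 9 and 501 ± 36 at stage 6.

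The flavonoid and phenylpropanoid list went both ways. Of 36 tested, 8 rose and 9 fell. The early enzymes fell, namely 4 phenylalanine ammonia-lyase transcripts, cinnamate 4-hydroxylase and 2 transcripts described as coumarate-CoA ligases. The main ammonia-lyase of the flavonoid and phenylpropanoid list (D17467.1) averaged 468 ± 7 at stage 9 and 1454 ± 48 at stage 6. Among the late enzymes of pigment synthesis, dihydroflavonol 4-reductase (AB289448.1) rose at a low level, with 143 ± 5 at stage 9 and 36 ± 7 at stage 6. Anthocyanidin synthase rose by a log2 change of 1.00, which became 0.90 with equal column sums and was then not called. The most abundant riser was a 2-hydroxyisoflavanone dehydratase-like transcript (XM_016618033.1), with 6988 ± 171 at stage 9 and 1614 ± 20 at stage 6. Another transcript of that description, the most abundant of the list over both stages, had 3125 ± 101 at stage 9 and 5620 ± 69 at stage 6, not called.

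Among redox enzymes 14 of 65 rose (21.5%) and 7 fell (10.8%), beside 5.96% and 8.42% of all transcripts. Their median was 0.17. Catalase, which breaks down hydrogen peroxide, rose in 4 transcripts of the redox list, the largest being catalase isozyme 3-like (XM_016601638.1), with 2665 ± 85 at stage 9 and 869 ± 77 at stage 6. Plastid copper-zinc superoxide dismutase rose in 2, the larger with 1982 ± 37 at stage 9 and 611 ± 31 at stage 6 (XM_016631233.1). The 2 nectarin-3 transcripts are counted in this list too. Among aquaporins and proton pumps 4 of 74 rose (5.41%) and 7 fell (9.46%), near the shares over all transcripts. Plasma membrane water channels of the PIP type made up 5 of the falls, and plasma membrane ATPase 2 (XM_016602228.1), a proton pump, had 6989 ± 341 at stage 9 and 4136 ± 331 at stage 6, not called.

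Transcripts of autophagy, by which cells digest their own contents, shifted slightly but evenly. Of 35 tested in the senescence and autophagy list, 6 rose and none fell. In all, 34 had a positive change, with a median of 0.65. The most abundant over both stages, autophagy-related protein 8C (XM_016589225.1), averaged 729 ± 9 at stage 9 and 485 ± 19 at stage 6. Photosynthesis transcripts rose in 3 of 44 (6.82%) and fell in 6 (13.6%), beside 5.96% and 8.42% of all transcripts. Their median was -0.11.

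Sums over Arabidopsis loci gave 1323 calls of 10555 (12.5%), of which 500 were higher at stage 9 (4.74%) and 823 lower (7.8%). Among called loci with at least 2 tested transcripts, all transcripts moved the way of the sum in 127 of 151 that rose and 216 of 226 that fell. The largest rise among loci with 3 or more transcripts was AT1G62510, a lipid-transfer-like family protein, with 12286 ± 622 at stage 9 and 513 ± 12 at stage 6. The next was asparagine synthase 1, AT3G47340, which loads nitrogen onto asparagine, with 165 ± 7 at stage 9 and 6 ± 6 at stage 6. Of the 5 largest falls, 4 were histone loci. The fall of histone H3 at AT3G27360 was to 245 ± 16 at stage 9, against 3995 ± 276 at stage 6.

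The step was then set against the same step in the other species. The test asked whether the N. rustica change differed from the mean change of the 4 other profiles, over 5580 transcripts with a mean of at least 50 in every profile. It measures spread between libraries and not between species. The change in N. rustica was called above that of the others in 223 transcripts (4%) and below it in 286 (5.13%), 9.12% in all.

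The histone fall was of this kind. All 18 core histones that could be tested were called, each with a lower change in N. rustica. Histone H3.2 (XM_016588791.1) had 1063 at stage 9 and 766 at stage 6 in N. benthamiana, 2938 and 4000 in N. glauca, 2299 and 1161 in N. plumbaginifolia, and 1644 and 2183 in N. bonariensis, in the same order of stages. Its difference from their mean change was -4.32 on the log2 scale (limma adjusted p = 2e-23). Median histone changes were -2.78 in N. rustica, 0.42 for N. benthamiana, -0.70 for N. glauca, 0.93 for N. plumbaginifolia and 0.05 for N. bonariensis. Against N. glauca alone, the other profile whose median was negative, 25 of 31 core histones had a lower change in N. rustica, where 9.97% of all transcripts tested against N. glauca differed.

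Ribosomal proteins differed less from the other species. The median of cytosolic ribosomal proteins was -1.10 in N. rustica, and was -0.41 for N. benthamiana, -0.96 for N. glauca, 0.07 for N. plumbaginifolia and -0.51 for N. bonariensis. Of 118 tested against the mean of the other profiles, 11 were called, all below. Against N. plumbaginifolia alone 111 of 171 were lower in N. rustica, where 23.2% of all transcripts differed, and against N. glauca alone 1 was higher and 1 lower of 187. Of 7 carotenoid synthesis transcripts tested, 3 had a higher change in N. rustica and none a lower one. Against single species the count depended on which was used, and the share of all transcripts that differed is given in parentheses. It was 11 higher and 1 lower of 16 against N. benthamiana (17%), and 3 higher and 3 lower of 15 against N. glauca (9.97%). Against N. plumbaginifolia 6 were higher and 1 lower of 12 (23.2%), and against N. bonariensis 8 were higher and 2 lower of 16 (17.5%). The median of carotenoid synthesis was 1.20 in N. rustica, and was -0.73 for N. benthamiana, 0.99 for N. glauca, 0.37 for N. plumbaginifolia and 0.84 for N. bonariensis. Zeaxanthin epoxidase (XM_016620556.1) differed by 1.55 and geranylgeranyl pyrophosphate synthase (XM_016586612.1) by 2.04.

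**Figure D5:**
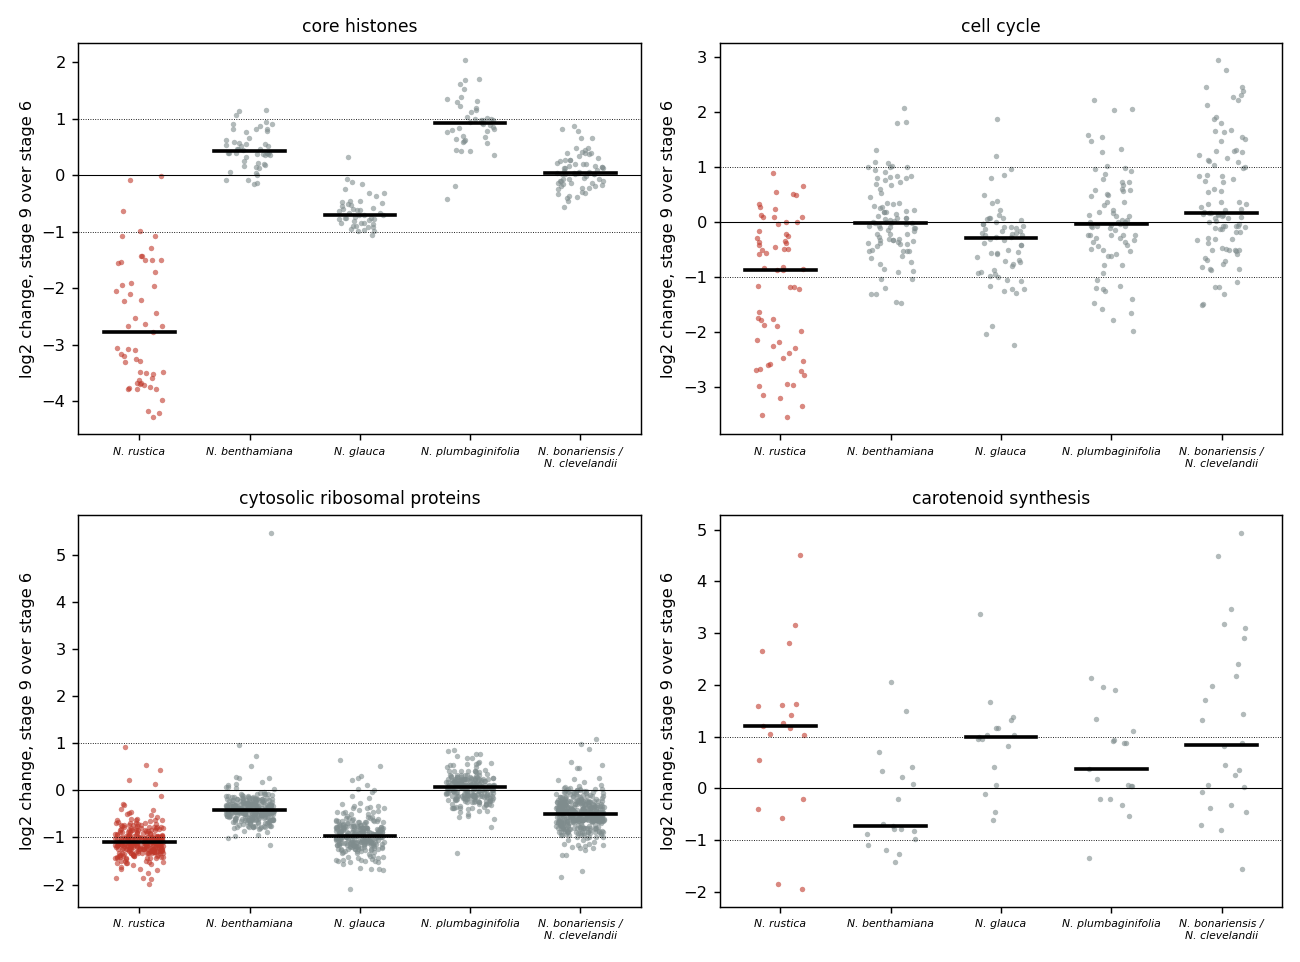
Log2 change of each list member, stage 9 over stage 6, in N. rustica (red) and the 4 other profiles (grey), with medians as black bars and 2-fold changes as dotted lines. A point is a transcript with a mean of at least 50 at either stage in that profile. N. rustica core histones have a median of -2.78, while the other medians lie between -0.70 and 0.93.

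The SWEET9 transcript XM_016615427.1 had more counts at stage 9 in every profile. It had 31927 at stage 9 and 12265 at stage 6 in N. benthamiana, 34157 and 2152 in N. glauca, 1233 and 154 in N. plumbaginifolia, and 1603 and 514 in N. bonariensis, in the same order of stages. The rise in N. rustica was larger than their mean change by 2.05 on the log2 scale (limma adjusted p = 2.25e-20). CRABS CLAW differed from the others by 0.15 and MYB305 (XM_016644811.1) by 0.06, and neither was called. NCED6 (XM_016602905.1) rose in N. rustica by 1.68, which differed from the others by 0.06, not called. The APRR1 transcript without a match (XM_016653577.1) had a negative change in each of the 5 profiles. Its difference was 1.10, since the change in N. rustica was closer to 0 than the mean of the others.

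Marks of difference stand in the authors' deposited table for 7357 of the 18040 transcripts (40.8%) between these stages, 3698 of them with the higher mean at stage 9 (20.5%) and 3659 with the lower (20.3%). The criterion of that mark is not stated. Of the 2594 calls made here, 2172 (83.7%) are marked in the authors' deposited table too. Of the 422 that are not, 410 had both means under 100.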

How the data were processed

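RNA of hand-dissected nectaries was sequenced from TruSeq RNA v2 libraries as 50-base paired reads on a HiSeq 2500, per the labels' protocols. For each transcript and group the deposited values are a mean and an SD over 3 libraries of normalized counts, which the authors rounded to whole numbers and which are treated as a score here. It also holds the authors' yes or no calls of difference. Normalization with DESeq is named in the submitters' processing notes, without a version. The aligner is not named in the material used. Values of single libraries and library totals were not used, so depth is unknown and counting error cannot be separated from other spread.

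Transcripts with a mean of 50 or more at either stage were tested with limma 3.58.1 in R 4.3.3 (data.table version 1.17.8). Changes were log2 of (stage 9 mean plus 1) over (stage 6 mean plus 1). Variances on that scale came from the SDs (delta method, with rounding error added) and were averaged over both groups, with 4 residual degrees of freedom, then moderated along a trend in level. A call needed a Benjamini-Hochberg adjusted p under 0.05 and at least a 2-fold change. Count models need library counts and were not used. In the test of N. rustica against the other species, the variances of all 5 profiles were averaged, with 20 residual degrees of freedom. SDs of locus sums are the sums of the transcripts' SDs. On simulated data with 18040 transcripts, 48 of 50 rises and 42 of 50 falls of 1.2 on the log2 scale were called, and all 50 of each of 2.

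Genes were named by rule: the 12 largest rises and falls with a mean of 500 or more and a description, 1 transcript per Arabidopsis locus, the largest rise and fall and the most abundant member of each list, the largest gains and losses of counts, the largest differences from the other species, the 5 largest rises and falls among loci with 3 or more transcripts, and SWEET9, cell wall invertase 4, nectarin-1, CRABS CLAW and MYB305. Other list members were named after their values were seen. The transcripts and gene lists were chosen with earlier results of these data known. Of 37 lists, 36 had members at 50 or more. Alternatives were other pseudocounts, level filters, scalings, variance models and folds.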

Additional observations from a re-analysis of the deposited data

Results flagged for a closer look

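For 28 of the named transcripts, the stage 9 over stage 6 change in N. rustica differed from the mean change of the 4 other profiles by at least 2-fold, with a limma adjusted p under 0.05 for the difference itself. The naming rule took in the transcripts with the largest differences in this same test, so that count is partly set by the choice. Over all 5580 transcripts tested, 9.12% were called. Differences below are on the log2 scale, N. rustica minus the others. No explanation was tested.

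Differences above 0 were largest for BAG family molecular chaperone regulator 6-like, at 3.33. Probable cyclic nucleotide-gated ion channel 20 differed by 3.28, with 3993 ± 96 at stage 9 and 381 ± 58 at stage 6. Putative lysine-specific demethylase JMJD5, a clock-linked protein in Arabidopsis, differed by 3.23, with 1006 ± 24 at stage 9 and 116 ± 26 at stage 6 (XM_016633723.1). Homeobox protein knotted-1-like 1, of a family that keeps meristem cells undifferentiated, differed by 2.69 (XM_016633253.1). It had 1192 ± 126 at stage 9 and 454 ± 44 at stage 6, while the mean change of the others was -1.30. Purine permease 1-like differed by 2.67, with 1504 ± 12 at stage 9 and 212 ± 8 at stage 6 (NM_001326217.1).

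Of carotenoid and precursor enzymes, beta-carotene hydroxylase 2 differed by 2.43, geranylgeranyl pyrophosphate synthase by 2.04, zeaxanthin epoxidase by 1.55 and hydroxymethylbutenyl diphosphate synthase by 1.14. Beta-carotene hydroxylase 2 rose more in N. bonariensis (4.94) than in N. rustica (4.50), while the others of these enzymes rose most in N. rustica. SWEET9 differed by 2.05, the germin by 1.68, the cannabidiolic acid synthase-like transcript by 1.31 and plasma membrane ATPase 2 by 1.14. The germin rose more in N. plumbaginifolia (2.77) than in N. rustica (2.61). The cannabidiolic acid synthase-like transcript rose by 3.56 in N. rustica, 3.49 in N. glauca and 3.21 in N. plumbaginifolia. SWEET9 rose by 4.55 in N. rustica and 3.99 in N. glauca. Plasma membrane ATPase 2 changed by 0.76 in N. rustica and by at most 0.12 in the others. A difference above 0 was also found for APRR1, at 1.1, and xyloglucan endotransglucosylase 2-like, at 1.09, whose changes were negative in N. rustica and lower still on average in the others.

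Differences below 0 were largest for histones, at -4.32 for histone H3.2, -4.14 for probable histone H2A variant 1, -3.92 for histone H2B.2-like and -2.24 for probable histone H2A.1. High mobility group B protein 7-like differed by -3.31, phenylalanine ammonia-lyase by -3.31, caffeoylshikimate esterase-like by -2.16 and non-specific lipid-transfer protein 1-like by -3.5. Heat shock cognate protein 80-like differed by -2.23, ornithine decarboxylase by -2.05, a 2-hydroxyisoflavanone dehydratase-like transcript by -1.8 and cytosolic glutamine synthetase 1-1 by -1.78. The response regulator ORR9-like, of cytokinin signalling, differed by -3.33, but its N. rustica mean was 1546 ± 239 at stage 9 and 2667 ± 1899 at stage 6 (XM_016602174.1), and its own change was not called. Its spread was wide in other profiles too, with 9854 ± 14325 in N. benthamiana and 184 ± 274 in N. glauca at stage 9, so 1 library held most of each of those values.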

How the results depend on the processing

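The 2594 calls depended mainly on the level and fold required. Without a filter on level 1757 transcripts rose. At a mean of 200 or more there were 1534 calls, 640 higher and 894 lower. With no minimum fold there were 11918, 6135 higher and 5783 lower, and with a 4-fold minimum 563, 220 higher and 343 lower. A pseudocount of 10 (2300), the median ratio (2590), equal column sums (2673), no trend (2586) and the linear scale (2583) stayed within 1.5 times of the main count. Against single species the step differed in 1733 transcripts for N. benthamiana (17%), 968 for N. glauca (9.97%), 2218 for N. plumbaginifolia (23.2%) and 2484 for N. bonariensis (17.5%), over more transcripts than the 5580 of the joint test. The median of the gibberellin list reversed to 0.005 for members with a mean of 200 or more, and the cause was not tested.

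Among the 121 named transcripts no direction reversed. Of the 90 called, 26 changed less than 4-fold. Sucrose synthase XM_016610901.1 and deoxyxylulose-phosphate synthase XM_016592817.1 missed 2-fold with a pseudocount of 10, and with equal column sums MYB305 XM_016584086.1, 1 of the 24 rises on the lists or named by rule that were lost so. The peroxidase 3-like XM_016613557.1 had a limma adjusted p of 0.0705 on the linear scale. No paired analysis was possible because the table gives group means and SDs only, and for the same reason leaving out single libraries was not run. Whole-number rounding and unknown depth limit means near 50 most.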

Other observations

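Several transcripts of primary metabolism, chosen by the naming rule, fell. S-adenosylmethionine decarboxylase, which supplies polyamine synthesis (XM_016643521.1), fell to 8077 ± 156 at stage 9, against 21613 ± 109 at stage 6. Cytosolic glutamine synthetase 1-1, which fixes ammonium (XM_016610836.1), fell to 3459 ± 158 at stage 9, against 13001 ± 198 at stage 6. Ornithine decarboxylase, the largest fall of the nicotine and berberine bridge-like list, at the start of the putrescine route to nicotine (AF127242.1), fell to 69 ± 18 at stage 9, against 502 ± 7 at stage 6. Of the 8 tested members of that list, 1 rose and 2 fell, with a median of 0.12. The glycolytic enzyme glyceraldehyde-3-phosphate dehydrogenase (XM_016643257.1) fell to 11626 ± 373 at stage 9, against 24264 ± 865 at stage 6.

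In the aquaporin and proton pump list 5.41% of members were called higher and 9.46% lower, beside 5.96% and 8.42% of all transcripts. Probable aquaporin NIP5-1, a boric acid channel in Arabidopsis (XM_016614816.1) averaged 2237 ± 101 at stage 9 and 454 ± 44 at stage 6, and NIP6-1-like (XM_016582751.1) 807 ± 29 at stage 9 and 386 ± 24 at stage 6, the second of them short of 2-fold with equal column sums. The water channel PIP2 7b (BK008515.1) averaged 823 ± 44 at stage 9 and 1989 ± 33 at stage 6.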
